A study of Danio rerio with 63 samples.

Results

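The caudal genes cdx1a, cdx1b and cdx4 and the even-skipped genes evx1 and evx2, homeobox genes of the vertebrate tailbud, were followed in RNA-seq of zebrafish (Danio rerio) explants. The genes were chosen by symbol. The 5 symbols matched 6 of the 32057 rows of the count table, because evx1 stands there under 2 Ensembl identifiers. The rows of cdx4 (ENSDARG00000036292) and cdx1a (ENSDARG00000114554) were the 2 that passed the filter on low counts, which 19069 rows of the table passed. The other 4 rows, of cdx1b (ENSDARG00000116139), evx1 (ENSDARG00000099365 and ENSDARG00000100087) and evx2 (ENSDARG00000059255), held trace counts and are described by their counts.

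Caudal proteins are transcription factors of the posterior embryo that respond to Wnt, Fgf and retinoic acid signals and act on the Hox genes of trunk and tail. In zebrafish, cdx4, the gene mutated in kugelig, works together with cdx1a in formation of the posterior body and of embryonic blood, while cdx1b is best known from endoderm and gut. The genes evx1 and evx2 lie beside the last genes of Hox clusters and are known from the tailbud, the fins and neurons of the spinal cord. A further even-skipped gene of the zebrafish, eve1, which is known from the ventral margin of the gastrula and from the tailbud, was not among the chosen genes and serves for comparison.

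Explants are pieces of blastula tissue, here taken at about 3 hours post fertilization (hpf) and grown in a simple medium. One group came from embryos carrying ndr2 mRNA, which encodes a Nodal ligand, at a dose of 10 pg. A second carried the mRNA of a constantly active Nodal receptor, CA-acvr1b*, at 0.5 pg, and both were injected as 1 cell. The third came from uninjected embryos. Each was collected at 7 stages, namely sphere, 30% epiboly, 50% epiboly, shield, 75% epiboly, 90% epiboly and 2-somite, which correspond to 4, 4.7, 5.3, 6, 8, 9 and 11 hpf, with biological replicates A, B and C, which gives 63 libraries in 21 groups. Both injections put the mRNA into the whole early embryo, and the strain and the number of explants behind a library are not given in the sources used here.

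Libraries held between 11756626 and 19650245 counts, with a median of 15620678, and levels are given as CPM, counts scaled to a library total of 1000000. A library with no count of a gene allows a level of up to 0.153 to 0.255 CPM, the worth of 3 counts, which covers counting error only. The early blastoderm genes pou5f3, nanog, sox19b and sox3 summed to between 5161 and 6241 CPM in the 9 sphere libraries. No other tissue was available for comparison, so this sum does not test what the tissue was. In 8 libraries the whole profile lay closer to another stage than to the labelled one. These were uninjected replicate A at sphere, 50%, 75% and 90% epiboly, uninjected replicates B and C at 90% epiboly, and CA-acvr1b* replicate B at 50% and 75% epiboly. For uninjected replicate A and CA-acvr1b* replicate B the closer stage was each time the next one. For uninjected replicates B and C it was 75% epiboly. Results of cdx4 and cdx1a that rest on them are given with and without them where the call changes. The values of eve1 and of the gene lists were not refitted without these libraries.

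Of the caudal genes tested, cdx4 had larger log2 differences from uninjected explants at 2-somite than cdx1a. The genes were not tested against each other. The cdx4 transcript was close to absent before 50% epiboly, and up to shield the libraries of the 3 conditions overlapped. From shield to 75% epiboly its rise passed the test in ndr2 and CA-acvr1b* explants. In uninjected explants the mean went from 16.5 to 35.0 CPM, which did not pass. Whether this step differs between conditions was not tested. At the 2-somite stage cdx4 stood at 448 ± 181 CPM in ndr2 explants, 281 ± 171 CPM in CA-acvr1b* explants and 12.8 ± 9.16 CPM in uninjected explants (SD, n = 3 each).

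**Figure D1:**
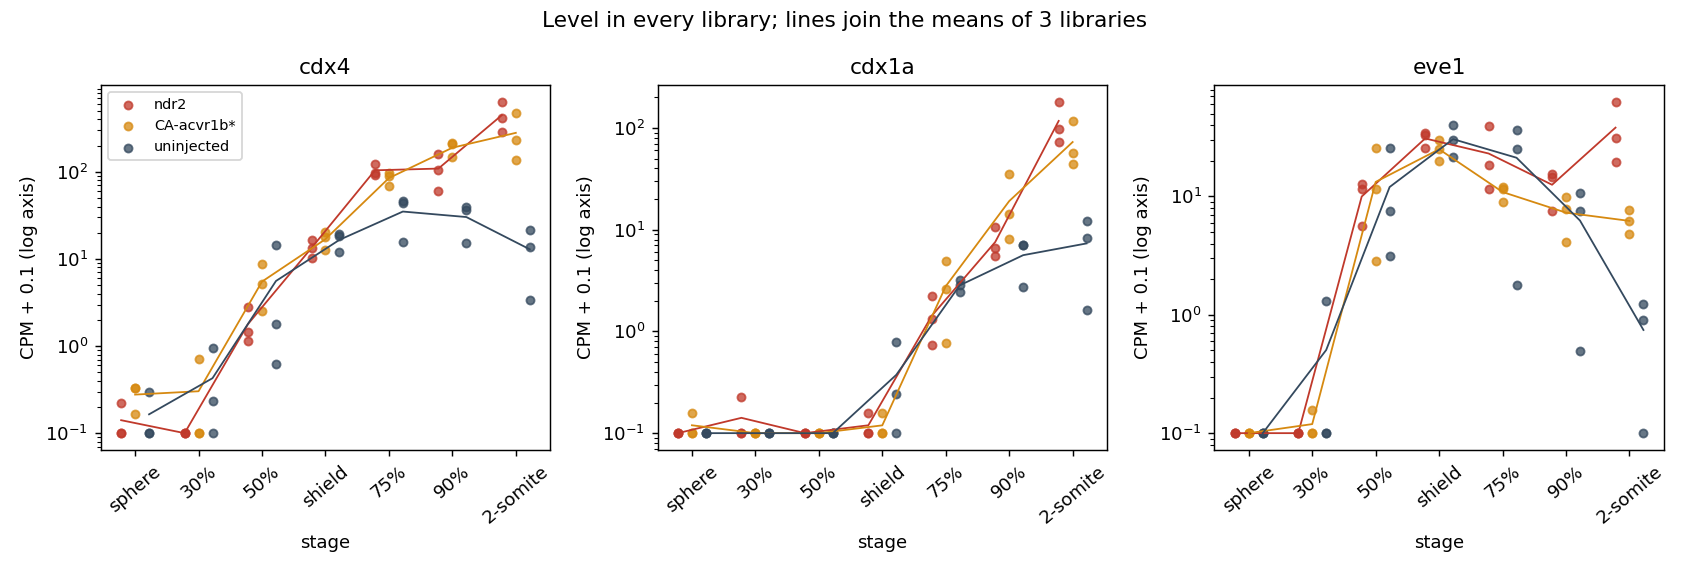
Level of cdx4, cdx1a and eve1 in each library, as CPM + 0.1 on a log axis, against stage. Points are single libraries in red for ndr2, orange for CA-acvr1b* and dark blue for uninjected explants, and lines join the means of 3 libraries; at the 2-somite stage every injected library lies above every uninjected one in all 3 panels.

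At sphere and 30% epiboly, cdx4 had between 0 and 14 counts in a library, and at 30% epiboly it had none in any of the 3 ndr2 libraries. At 50% epiboly its level in replicates A, B and C was 2.70, 1.04 and 1.34 CPM in ndr2 explants. It was 5.06, 8.72 and 2.43 CPM in CA-acvr1b* explants and 14.2, 0.527 and 1.69 CPM in uninjected explants. The uninjected value of 14.2 CPM comes from replicate A, whose profile lay closer to shield, and the other uninjected libraries held 0.527 and 1.69 CPM.

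From 30% to 50% epiboly cdx4 rose in all 3 conditions. In ndr2 explants, without a count at 30% epiboly, the mean at 50% epiboly was 9.11-fold the worth of 3 counts at the earlier stage. This ratio leaves out the spread of the later libraries (edgeR adjusted p of the step = 0.00961). The log2 fold change over the same step was 4.80 in CA-acvr1b* explants (SE 1.08, edgeR adjusted p = 0.000541) and 4.28 in uninjected explants (SE 1.00, edgeR adjusted p = 0.00127). This step called 21.9% of all tested genes in ndr2, 31.8% in CA-acvr1b* and 24.9% in uninjected explants, so cdx4 moved at a time when many genes did. Without uninjected replicate A at 50% epiboly the step in uninjected explants was 1.87 (edgeR adjusted p = 0.314), and without ndr2 replicate A at that stage the ndr2 step had an edgeR adjusted p of 0.0511.

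At shield, replicates A, B and C held 16.6, 10.1 and 13.1 CPM of cdx4 in ndr2 explants. They held 12.4, 20.3 and 17.7 CPM in CA-acvr1b* explants and 19.1, 11.9 and 18.5 CPM in uninjected explants. The conditions overlapped in full at this stage. The log2 difference from uninjected was -0.30 for ndr2 (SE 0.64, edgeR adjusted p = 0.920) and 0.01 for CA-acvr1b* (SE 0.64, edgeR adjusted p = 1.00). The rise from 50% epiboly to shield passed the test in ndr2 explants, at 3.12 (SE 0.77, edgeR adjusted p = 0.00691, 12% of genes called). It did not in CA-acvr1b* explants (1.76, SE 0.69, edgeR adjusted p = 0.106) or in uninjected explants (1.60, SE 0.67, edgeR adjusted p = 0.0955), but without uninjected replicate A at 50% epiboly the uninjected step was 4.01 (edgeR adjusted p = 0.000273). Without ndr2 replicate B at 50% epiboly the ndr2 step had an edgeR adjusted p of 0.0519.

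At 75% epiboly the injected libraries no longer overlapped the uninjected ones. There cdx4 stood at 96.8, 124 and 91.6 CPM in the 3 ndr2 libraries. It stood at 69.2, 95.9 and 89.7 CPM in the CA-acvr1b* libraries and at 15.5, 45.8 and 43.6 CPM in the uninjected ones. Every injected library lay above every uninjected one, yet the log2 difference from uninjected did not pass the test for ndr2 (1.61, SE 0.63, edgeR adjusted p = 0.244) or for CA-acvr1b* (1.28, SE 0.63, edgeR adjusted p = 0.634). Without the lowest uninjected library, replicate A, whose profile lay closer to 90% epiboly, the differences were 1.25 and 0.92. The share of all genes whose injected and uninjected libraries do not overlap at a stage was not counted.

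The step from shield to 75% epiboly raised cdx4 by a log2 fold change of 2.97 in ndr2 explants (SE 0.67, edgeR adjusted p = 0.000735). It raised it by 2.33 in CA-acvr1b* explants (SE 0.65, edgeR adjusted p = 0.00735). In uninjected explants the step was 1.06 (SE 0.64, edgeR adjusted p = 0.287), and it was 1.55 (edgeR adjusted p = 0.0499) once all replicates A were left out. This step called 25.9%, 22.2% and 15.8% of genes in ndr2, CA-acvr1b* and uninjected explants.

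At 90% epiboly the 3 ndr2 libraries spread widely, at 59.6, 105 and 162 CPM of cdx4. The CA-acvr1b* libraries lay higher and closer together, at 207, 214 and 148 CPM. Uninjected libraries held 15.1, 36.2 and 39.4 CPM, below all injected ones. CA-acvr1b* explants were higher than uninjected ones with a log2 difference of 2.66 (SE 0.65, edgeR adjusted p = 0.0129), at a stage where that comparison called 2.49% of genes. All 3 uninjected libraries of the stage lay closer to another stage. The call was lost without uninjected replicate A, where the difference was 2.34 (edgeR adjusted p = 0.120), and kept without uninjected replicate B or C, at 2.84 and 2.88 (edgeR adjusted p = 0.0398 and 0.0384). It was also lost when all libraries of letter B or of letter C were left out of the model, at 2.78 and 3.03 (edgeR adjusted p = 0.205 and 0.204). For ndr2 the difference from uninjected was 1.90 (SE 0.64, edgeR adjusted p = 0.111). This difference passed the test once all replicates A were left out (edgeR adjusted p = 0.0411).

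At the 2-somite stage the ndr2 libraries held 416, 643 and 286 CPM of cdx4, from 7626, 8123 and 4992 counts. The CA-acvr1b* libraries held 471, 139 and 233 CPM, from 6652, 2409 and 3117 counts. The uninjected libraries held 3.27, 13.6 and 21.5 CPM, from 49, 223 and 341 counts. The lowest injected library was thus far above the highest uninjected one, while ndr2 and CA-acvr1b* libraries overlapped.

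Both injections raised cdx4 over uninjected explants at this stage, by a log2 fold change of 5.16 for ndr2 (SE 0.73, edgeR adjusted p = 1.4e-06) and by 4.48 for CA-acvr1b* (SE 0.71, edgeR adjusted p = 1.23e-05). The stage called 12.2% of genes for ndr2 and 9.15% for CA-acvr1b*. Between the injections the difference was 0.68 (SE 0.61, edgeR adjusted p = 1.00), and it was -0.07 once all replicates B were left out. In bulk RNA, more cells with the transcript and more transcript per cell cannot be told apart.

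The last step led from 90% epiboly to 2-somite. In ndr2 explants cdx4 rose by 1.96 (SE 0.63, edgeR adjusted p = 0.0426, 8.82% of genes called). In CA-acvr1b* explants the step was 0.51 (SE 0.61, edgeR adjusted p = 0.755), and the 2-somite libraries lay on both sides of the 90% epiboly ones. In uninjected explants it was -1.31 (SE 0.64, edgeR adjusted p = 0.219). The ndr2 call stood close to the threshold: it was lost without any one of 5 of its 6 libraries (2-somite replicates A and B, 90% epiboly replicates A, B and C), with edgeR adjusted p between 0.0529 and 0.191. It was also lost with DESeq2 (adjusted p = 0.0847), with no filter on low counts (edgeR adjusted p = 0.0726), with a replicate block (edgeR adjusted p = 0.0509) and without all libraries of letter B or C (edgeR adjusted p = 0.426 and 0.187), so that 5 of 15 alternatives kept it.

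Read as one series, cdx4 was ordered by both condition and stage. Of the 21 group means the first 6 were ndr2 and CA-acvr1b* groups of 75% epiboly and later, and the uninjected 2-somite group came twelfth, below all 3 shield groups. Most neighbours in this order overlapped, and only 2 of the 20 neighbouring pairs did not: CA-acvr1b* at 75% epiboly above uninjected at the same stage, and ndr2 at 50% epiboly above uninjected at 30% epiboly. Uninjected explants reached 7.80% of the highest group mean at 75% epiboly and were at 2.86% at 2-somite.

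The difference of cdx4 from uninjected depended on stage for both injections (joint F-test over 7 stages, edgeR adjusted p = 0.000109 for ndr2, with 5.32% of genes called, and 0.00791 for CA-acvr1b*, with 3.43% called). The effect of ndr2 did not pass such a test against that of CA-acvr1b* (edgeR adjusted p = 1.00). The stage-dependent CA-acvr1b* call of cdx4 was lost with DESeq2, with only the groups compared and without any one replicate letter. With a letter left out, 0 to 1 of the 2 genes cdx4 and cdx1a kept the stage-dependent ndr2 call. Averaged over the 7 stages with equal weights, the log2 difference of cdx4 from uninjected was 0.10 for ndr2 (SE 0.41, edgeR adjusted p = 0.968) and 1.28 for CA-acvr1b* (SE 0.50, edgeR adjusted p = 0.134). The ndr2 average includes the 30% epiboly group without a count, whose fitted value depends on the prior count.

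The second caudal gene with enough reads, cdx1a, came later. Up to shield it had at most 2 counts in a library, except 11 in uninjected replicate A at shield, and no count in 7 of the 12 groups of these stages. It appeared at 75% epiboly in every library of all conditions and reached its highest levels at 2-somite, at 117 ± 57.2 CPM in ndr2 explants, 72.5 ± 39.4 CPM in CA-acvr1b* explants and 7.22 ± 5.29 CPM in uninjected explants (SD, n = 3 each).

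At 75% epiboly the ndr2 libraries held 1.21, 2.12 and 0.643 CPM of cdx1a. The CA-acvr1b* libraries held 0.670, 4.83 and 2.53 CPM, and the uninjected ones 2.32, 2.79 and 3.09 CPM. At this first stage of clear reads the gene was thus not higher with either injection: every ndr2 library lay below every uninjected one, at a log2 difference of -1.0 (SE 0.73, edgeR adjusted p = 0.665), and CA-acvr1b* libraries lay on both sides of them (-0.04, SE 0.69, edgeR adjusted p = 1.00). For cdx4 in the same libraries the injected explants already lay above the uninjected ones. Neither of these cdx4 differences passed the test (edgeR adjusted p = 0.244 for ndr2 and 0.634 for CA-acvr1b*).

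The step from shield to 75% epiboly passed the test for cdx1a in all 3 conditions. The 3 ndr2 libraries together had 1 count at shield and 57 at 75% epiboly (edgeR adjusted p = 0.00308). The CA-acvr1b* libraries had 1 and 127 (edgeR adjusted p = 0.000558), and the uninjected libraries 13 and 121, a log2 change of 3.19 (SE 0.90, edgeR adjusted p = 0.0130). The uninjected call was lost without shield replicate B (edgeR adjusted p = 0.0811) or shield replicate C (edgeR adjusted p = 0.0647).

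At 90% epiboly cdx1a stood at 5.36, 6.58 and 10.5 CPM in ndr2 explants. It stood at 14.1, 34.8 and 8.07 CPM in CA-acvr1b* explants and at 2.66, 6.96 and 6.92 CPM in uninjected explants. Only the CA-acvr1b* libraries all lay above the uninjected ones, and neither difference passed the test (ndr2 0.48, SE 0.64, edgeR adjusted p = 0.840; CA-acvr1b* 1.77, SE 0.64, edgeR adjusted p = 0.212). The cdx1a step from 75% to 90% epiboly in CA-acvr1b* explants was 2.80 (edgeR adjusted p = 0.0770). It passed without CA-acvr1b* replicate B at 75% epiboly or replicate C at 90% epiboly (lowest edgeR adjusted p = 0.0451).

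At 2-somite the levels of cdx1a were 97.0, 182 and 72.7 CPM in ndr2 explants. They were 118, 43.9 and 56.1 CPM in CA-acvr1b* explants and 1.53, 8.14 and 12 CPM in uninjected explants. Injected and uninjected libraries did not overlap, and those of the injections did. The log2 difference from uninjected was 4.05 for ndr2 (SE 0.69, edgeR adjusted p = 8.19e-05) and 3.35 for CA-acvr1b* (SE 0.67, edgeR adjusted p = 0.000706), and the difference between injections was 0.70 (SE 0.60, edgeR adjusted p = 0.993). With each comparison fitted on its 6 libraries alone, the edgeR adjusted p of cdx1a was 0.0582 for ndr2 and 0.133 for CA-acvr1b*, and that of cdx4 for CA-acvr1b* was 0.0872.

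From 90% epiboly to 2-somite cdx1a rose by a log2 fold change of 3.89 in ndr2 explants (SE 0.68, edgeR adjusted p = 0.000269). The step was 1.89 in CA-acvr1b* explants (SE 0.63, edgeR adjusted p = 0.0758) and 0.32 in uninjected explants (SE 0.64, edgeR adjusted p = 0.844). Whether the steps differ was tested directly: the ndr2 step exceeded the uninjected one by 3.57 (SE 0.91, edgeR adjusted p = 0.0543) and the CA-acvr1b* step exceeded it by 1.58 (SE 0.89, edgeR adjusted p = 0.899), so neither passed. For cdx4 the same differences of steps were 3.26 (SE 0.90, edgeR adjusted p = 0.0808) and 1.82 (SE 0.89, edgeR adjusted p = 0.755). Without uninjected replicate A at 90% epiboly, whose profile lay closer to 2-somite, the ndr2 differences of steps were 3.90 for cdx1a (edgeR adjusted p = 0.0252) and 3.59 for cdx4 (edgeR adjusted p = 0.0371).

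**Figure D2:**
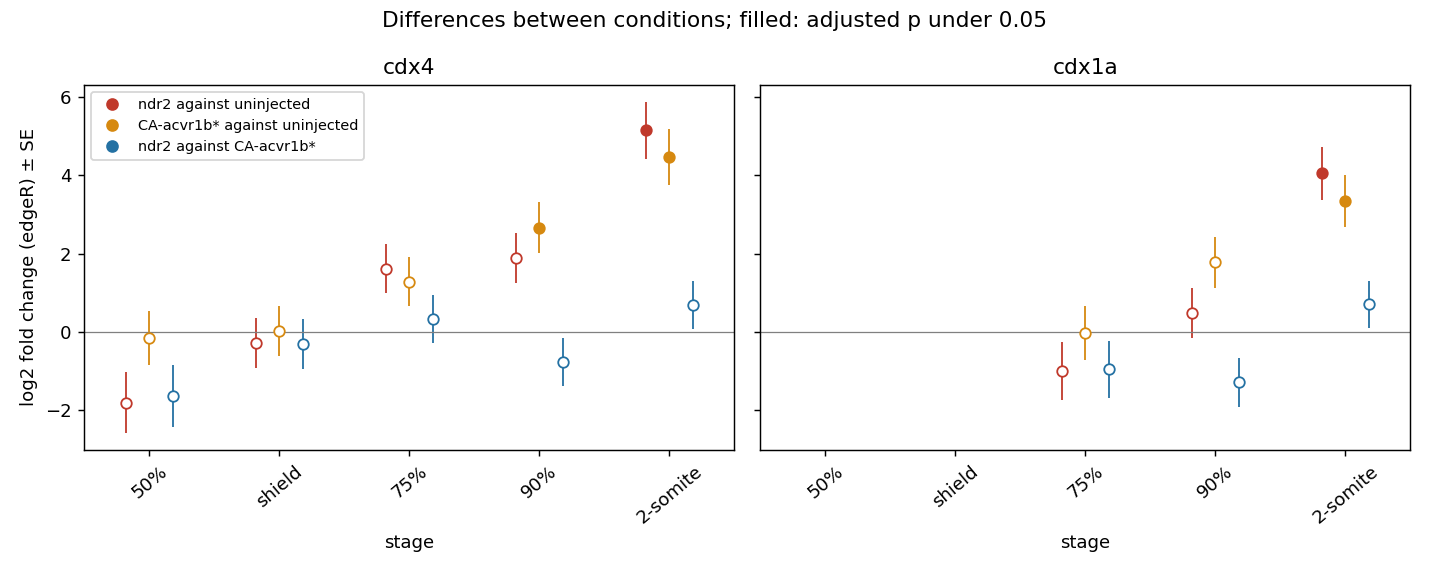
Log2 fold change of cdx4 and cdx1a between conditions, with an SE derived from the F statistic, at each stage where one of the groups reached a mean of 1 CPM. Red stands for ndr2 against uninjected, orange for CA-acvr1b* against uninjected and blue for ndr2 against CA-acvr1b*, and filled points passed the edgeR test; the filled points are those of cdx4 at 90% epiboly (CA-acvr1b*, 2.66) and of both genes at 2-somite (3.35 to 5.16).

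Over both genes and 7 stages, 2 of 14 differences passed the test for ndr2 against uninjected, where the same tests called 2.81% over all genes. For CA-acvr1b* against uninjected 3 of 14 passed, where 2.04% did over all genes. For ndr2 against CA-acvr1b* none of 14 passed with edgeR or with DESeq2, 2 had an unadjusted edgeR p under 0.05, and 0.315% of all such tests were calls. Between consecutive stages 6 of 12 changes passed in ndr2 explants, 3 of 12 in CA-acvr1b* explants and 2 of 12 in uninjected explants, against 16.6%, 15.8% and 16% of all such tests. In the full fit the effect of ndr2 on cdx1a also depended on stage (joint F-test, edgeR adjusted p = 0.0106), and that of CA-acvr1b* did not pass (edgeR adjusted p = 0.166).

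The remaining caudal gene, cdx1b, was at trace level throughout. It had a count in 4 of 9 sphere libraries (14 counts in all) and in 10 of 54 later ones (54 counts in all). Of those later counts 34 came from the 3 ndr2 libraries at 50% epiboly, with 4, 6 and 24 in replicates A, B and C, where CA-acvr1b* explants had 0, 0 and 1 and uninjected explants 0, 1 and 0. Its highest level, in ndr2 replicate C at that stage, was 1.79 CPM. At the 2-somite stage, where cdx4 and cdx1a peaked, cdx1b had 4 counts in 1 uninjected library and none in the other 8.

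The few reads of the evx genes were found in a larger share of sphere libraries than of later ones. The first evx1 row (ENSDARG00000099365) had a count in 9 of 9 sphere libraries, with 39 counts in all, and in 2 of 54 later libraries, with 8 counts. The second (ENSDARG00000100087) had a count in 8 of 9, with 46 counts, and in 7 of 54, with 16 counts. For evx2 these were 7 of 9 with 29 counts and 2 of 54 with 3 counts.

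By condition, the sphere counts of the first evx1 row in replicates A, B and C were 2, 7 and 9 in ndr2 explants, 3, 1 and 6 in CA-acvr1b* explants and 3, 6 and 2 in uninjected explants. Those of the second row were 5, 7 and 5 with ndr2, 7, 2 and 13 with CA-acvr1b* and 4, 0 and 3 without injection. The evx2 counts were 4, 6 and 3 with ndr2, 1, 4 and 7 with CA-acvr1b* and 0, 0 and 4 without injection. The conditions overlapped for each row except that all ndr2 counts of the second evx1 row lay above the uninjected ones. No level exceeded 0.762 CPM. At the later stages, uninjected explants had 6, 6 and 2 counts of the first evx1 row, the second and evx2 over 18 libraries, against 11, 7 and 4 over their 3 sphere libraries.

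**Figure D3:**
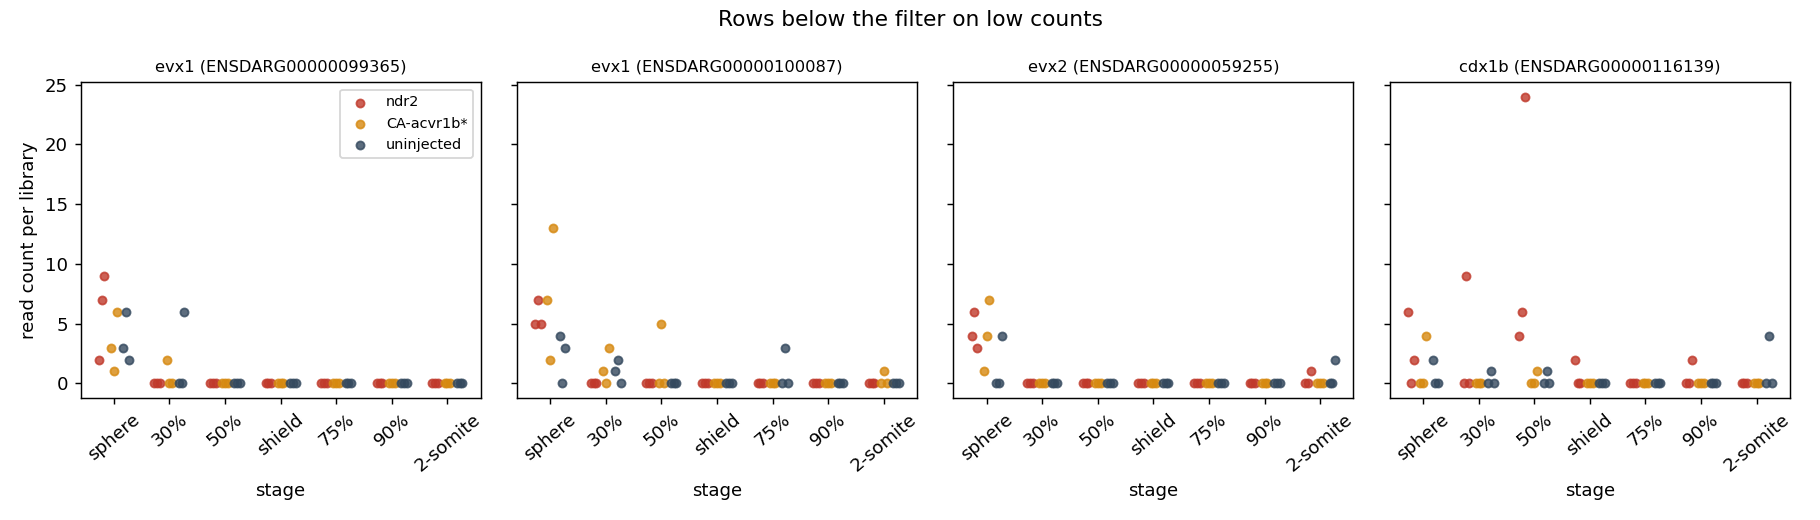
Read counts per library of the 2 evx1 rows, evx2 and cdx1b against stage, with ndr2 in red, CA-acvr1b* in orange and uninjected in dark blue. Of the 9 sphere libraries 9, 8 and 7 hold counts of the evx1 rows and evx2, at most 13, and the highest count of cdx1b, 24, is that of an ndr2 library at 50% epiboly.

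When the filter on low counts was dropped and 27123 genes were fitted, these 4 rows gave no call with edgeR in 84 tests between conditions (smallest adjusted p = 0.433) or in 72 tests between consecutive stages (smallest adjusted p = 0.0957). With unadjusted p under 0.05 were 3 of the 84 and 4 of the 72. How reads that fit both evx1 rows were counted is not given in the sources used here, so the level of evx1 is uncertain.

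Sparse reads at sphere were also seen at the Hox genes beside the even-skipped genes. The trunk and tail Hox list described below, which includes these genes, summed to group means of 7.29 CPM with ndr2, 7.59 CPM with CA-acvr1b* and 8.17 CPM without injection at sphere. At shield the list summed to 0.894, 1.40 and 0.953 CPM in the same order. In the gene order of the RefSeq assembly GRCz12tu, evx1 lies next to hoxa13a, evx2 next to hoxd13a and eve1 next to hoxb13a. At sphere hoxa13a had 27 counts in 6 of 9 libraries and hoxd13a 32 counts in 5 of 9, against 82 counts in 20 of 54 and 39 counts in 11 of 54 later libraries. On their other sides hibadha, beside evx1, had 3550 counts at sphere and 7289 later, and lnpa, beside evx2, had 19463 and 52655, with reads in all 63 libraries. The gene hoxb13a had 27 counts in 7 of 9 sphere libraries and 72 counts in 15 of 54 later ones, while eve1 beside it had no count at sphere.

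Unlike evx1 and evx2, eve1 (ENSDARG00000056012) was well expressed, and its course differed from that of the caudal genes. It was at 0 in all 9 sphere libraries and rose from 30% to 50% epiboly in each condition, with edgeR adjusted p of 0.000174 in ndr2, 4.32e-05 in CA-acvr1b* and 0.00103 in uninjected explants. At shield it stood at 30.8 ± 4.50 CPM with ndr2, 24.9 ± 5.10 CPM with CA-acvr1b* and 30.4 ± 9.31 CPM without injection (SD, n = 3 each).

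The conditions overlapped there and no longer did at 2-somite. At 2-somite the ndr2 libraries held 31.3, 63.3 and 19.5 CPM. The CA-acvr1b* libraries held 4.75, 6.05 and 7.54 CPM, and the uninjected ones 0, 0.796 and 1.14 CPM. The 3 conditions did not overlap, in the order ndr2, CA-acvr1b*, uninjected.

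The log2 difference of eve1 from uninjected at 2-somite was 5.89 for ndr2 (SE 1.11, edgeR adjusted p = 0.000241). It was 3.22 for CA-acvr1b* (SE 1.07, edgeR adjusted p = 0.0510), just short of the threshold, and 2.67 for ndr2 against CA-acvr1b* (SE 0.90, edgeR adjusted p = 0.312). In uninjected explants eve1 changed by -3.30 in log2 terms and so fell from 90% epiboly to 2-somite (SE 1.07, edgeR adjusted p = 0.0420, 10.1% of genes called), although replicate A at 90% epiboly, at 0.391 CPM, lay within the 2-somite range. In the same explants the step of cdx4 was -1.31 and that of cdx1a 0.32, neither past the test.

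Likeness between genes was measured as Pearson's r over the 21 group means of log2(CPM + 1), among 12811 tested genes with a group mean of at least 5 CPM. All groups contribute to every pair, so these values are descriptions. Between cdx4 and cdx1a r was 0.817 (Spearman's rho 0.804), between cdx4 and eve1 0.715 (rho 0.693), and between cdx1a and eve1 0.304 (rho 0.340).

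The genes most like cdx4 were wnt5b, a ligand of the noncanonical Wnt pathway (r = 0.980), sh3bp5a (r = 0.980) and FAT4, a giant cadherin (r = 0.980). Those most like cdx1a were col4a6, a chain of basement membrane collagen (r = 0.990), celsr1b, a cadherin of planar cell polarity (r = 0.987), and efna3b, an ephrin ligand (r = 0.979). The leading genes differed by little and their ranks depended on the measure: by Spearman's rho wnt5b was ranked 28.5 for cdx4 and col4a6 619 for cdx1a.

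**Figure D4:**
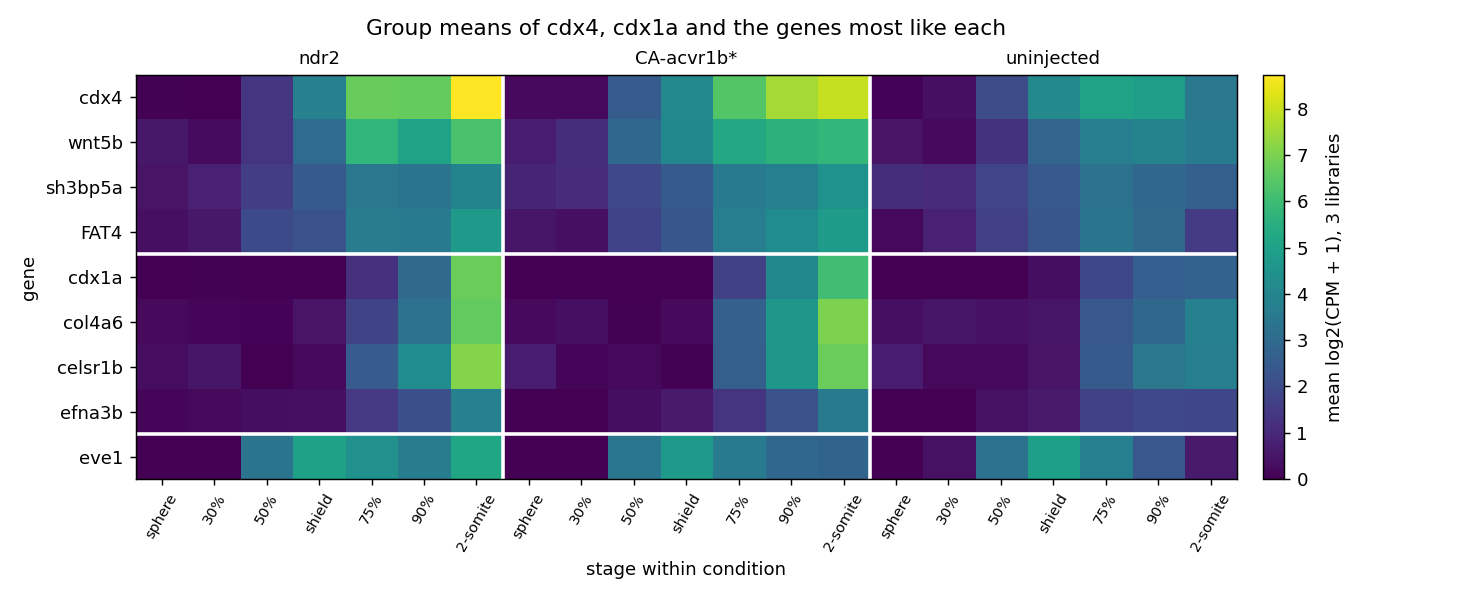
Group means of log2(CPM + 1) over 3 libraries for cdx4, cdx1a, the 3 genes most like each and eve1, with ndr2 groups on the left, CA-acvr1b* groups in the middle and uninjected groups on the right, each in order of stage. The cdx4 block brightens from 50% epiboly on and the cdx1a block from 75% epiboly on, both brightest at 2-somite after injection, whereas eve1 is bright from shield and dark in the last uninjected group.

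The surroundings of the caudal genes were described with lists of related genes, given as counts of calls at 2-somite, where 12.2% of all tested genes were called for ndr2 and 9.15% for CA-acvr1b*. A gene could pass the filter through the injected groups alone, so the tested genes of a list are not its whole, and their counts and medians describe those genes only. The genes named with their levels, at most 4 from a list, are those called at the largest number of stages against uninjected explants. Their passing is favoured by this choice and adds no support. A list of posterior Wnt, Fgf and T-box genes also held other genes, among them cyp26a1, aldh1a2, gdf11, msgn1, her1, her7 and dlc. Of its symbols, 22 of 23 were in the count table, and 18 of them were tested. At 2-somite, 17 of the 18 were higher with ndr2 than without injection and 1, the Notch ligand gene dlc, was lower. With CA-acvr1b* 17 were higher and none lower, and dlc was at -2.19 (edgeR adjusted p = 0.0563). The median log2 difference was 5.67 for ndr2 and 5.03 for CA-acvr1b*, or 5.46 and 4.64 with the 2 genes lacking any uninjected count at their lower bound, against a median of 0 over all genes.

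Among them tbxta, the brachyury gene of the tailbud and notochord, stood at 349 ± 147 CPM with ndr2, 316 ± 202 CPM with CA-acvr1b* and 1.47 ± 2.18 CPM without injection. The Fgf ligand gene fgf24 stood at 32.8 ± 11.1, 26.2 ± 14.1 and 0.463 ± 0.802 CPM in the same order. The ligand gene fgf8a stood at 51.6 ± 7.77 and 39.7 ± 22.7 CPM in ndr2 and CA-acvr1b* explants and had 2 counts over the 3 uninjected libraries, while fgf3 stood at 3.35 ± 2.64 and 7.63 ± 4.02 CPM and had none (SD, n = 3 each). All 4 passed the test in both comparisons, with edgeR adjusted p of at most 4.45e-05, but they were picked by their number of calls.

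Trunk and tail Hox genes, from paralog groups 5 to 13, are known targets of caudal proteins. Of 31 such genes with a row, 18 were tested, and 8 of these had no count in uninjected explants at 2-somite. At that stage 11 were higher with ndr2 and 10 with CA-acvr1b*. None was lower in either comparison, which the 8 genes without an uninjected count could not be.

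The central Hox gene hoxb8a stood at 13.3 ± 3.43 CPM with ndr2, 10.0 ± 6.28 CPM with CA-acvr1b* and 0.126 ± 0.219 CPM without injection. Its log2 difference from uninjected was 6.65 for ndr2 (SE 1.21, edgeR adjusted p = 0.000124) and 6.24 for CA-acvr1b* (edgeR adjusted p = 0.000265). The uninjected mean lay below the worth of 3 counts in that group, 0.191 CPM, so the size of both differences rests on few reads. hoxc8a (25.3 ± 6.70 and 14.3 ± 8.57 CPM in ndr2 and CA-acvr1b* explants), hoxb6a (2.43 ± 0.967 and 3.21 ± 2.64 CPM) and hoxc6a (7.62 ± 2.85 and 3.53 ± 2.13 CPM) had 3, 2 and 0 counts over the uninjected libraries, and each passed the test for both injections (SD, n = 3 each). These Hox genes, too, were picked by their number of calls. At 90% epiboly cdx4 stood at 59.6 CPM or more in all injected libraries and at 15.1 to 39.4 CPM in the uninjected ones. The summed level of the Hox list was then 1.72 ± 0.223 CPM with ndr2, 5.97 ± 5.64 CPM with CA-acvr1b* and 1.83 ± 0.332 CPM without injection. Whether cdx4 bears on these Hox levels was not tested. At that stage 2 of the 18, hoxb8a and hoxc8a, passed the test for CA-acvr1b* and 0 did for ndr2 with edgeR (2 of the 18 at an unadjusted p under 0.05), where 2.49% of all genes were called for CA-acvr1b* and 2.61% for ndr2.

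**Figure D5:**
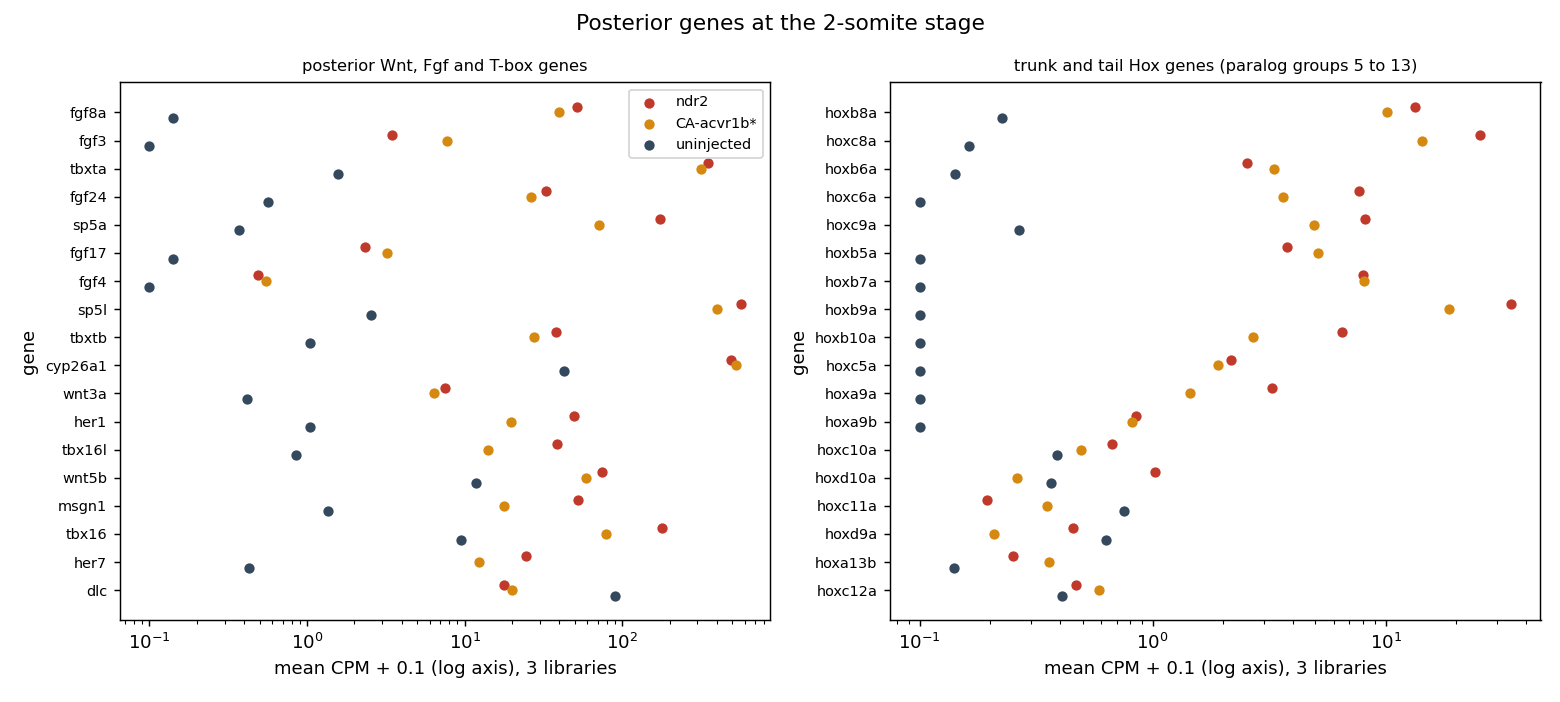
Mean level at the 2-somite stage of the tested genes of both lists, as CPM + 0.1 on a log axis, with ndr2 in red, CA-acvr1b* in orange and uninjected in dark blue, 3 libraries each. Genes are drawn from top to bottom by the number of stages called against uninjected, then by the larger average change. In the left panel uninjected points lie to the left for all genes but dlc. In the right panel the injected points separate from the uninjected ones in the upper rows and mostly not below, which the drawing order favours.

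Genes of other kinds moved in the same libraries. Of the 4 early blastoderm genes, sox3, sox19b and pou5f3 were higher and nanog lower with both injections at 2-somite, by log2 differences of 4.23, 2.32, 1.68 and -1.69 for ndr2 and of 4.36, 2.84, 1.10 and -1.42 for CA-acvr1b*. Their summed level was 1324 ± 295 CPM with ndr2, 1096 ± 151 CPM with CA-acvr1b* and 472 ± 224 CPM without injection (SD, n = 3 each). Since its members moved in both directions, this sum is not read as a measure of an early state. Of 13 tested BMP and ventral genes, 3 (eve1 and the ventral repressor genes vox and vent) were higher and 8 lower with ndr2 than without injection at 2-somite, and 1 (tbx1) was higher and 7 lower with CA-acvr1b*. The repressor gene ved stood at 102 ± 18.8 CPM with ndr2, 149 ± 103 CPM with CA-acvr1b* and 550 ± 15.8 CPM without injection. The blood and epidermal factor gene gata2a stood at 479 ± 84.6, 509 ± 362 and 1961 ± 56.8 CPM (SD, n = 3 each). Of these ventral genes bambia (-2.07 for ndr2, -1.98 for CA-acvr1b*), a BMP pseudoreceptor gene, and id3 (-1.74 and -1.12), a direct BMP target, were lower as well.

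Anterior neural genes rose beside the posterior ones: 6 of 8 tested were higher with ndr2 and 7 with CA-acvr1b* at 2-somite, and none was lower, against the 12.2% and 9.15% of all genes called. Of these 8 genes, 2 had no count in uninjected explants at that stage and could not be lower. The forebrain and midbrain factor gene otx2b stood at 183 ± 88.9 CPM with ndr2, 229 ± 113 CPM with CA-acvr1b* and 7.35 ± 3.30 CPM without injection. The forebrain gene six3b stood at 72.5 ± 35.3, 90.5 ± 28.8 and 3.79 ± 3.02 CPM (SD, n = 3 each). dmbx1a and fezf2, likewise picked by their number of calls, passed the test in both comparisons too, at log2 differences of 5.02 and 5.80 for ndr2 and of 4.36 and 6.79 for CA-acvr1b*.

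Markers of the enveloping layer and of the yolk syncytial layer were set beside these differences. With edgeR 0 of 11 tested enveloping layer genes were called at 2-somite for either injection (0 and 0 at an unadjusted p under 0.05), and their summed level ran from 22187 to 27542 CPM with ndr2, 25374 to 25948 CPM with CA-acvr1b* and 27422 to 37536 CPM without injection. Of 6 tested yolk syncytial layer genes, which summed to between 4.47 and 8.83 CPM with ndr2, 2.55 and 9.93 CPM with CA-acvr1b* and 8.73 and 23.7 CPM without injection, 1, gata6, was lower with ndr2 (-2.26, edgeR adjusted p = 0.0287). Endoderm genes (4 of 5 tested higher with ndr2, 5 of 5 with CA-acvr1b*) and notochord genes (2 of 2 tested higher with each) were called as well. The notochord list shares tbxta with the posterior list. The part of other cell types in the caudal differences was not tested.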

How the data were processed

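RNA-seq read counts per gene were analysed in 63 libraries of 21 groups. The deposited table holds whole-number counts, not normalized. Per the submitters' processing notes, Trim Galore, STAR and featureCounts and the builds danRer11 and GRCz11 were used, with versions not given in the sources used here.

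Genes were kept by edgeR's filterByExpr (minimum count 10, minimum total 15), which left 19069 of 32057 rows and 99.969% of counts. One quasi-likelihood model (edgeR 4.0.16, R 4.3.3, TMM factors from 0.865 to 1.30) with a mean for each group left 42 residual degrees of freedom. Consecutive stages, conditions at each stage, the average over stages and, by a joint F-test, whether the difference changes with stage were tested, with Benjamini-Hochberg adjustment over all genes within each contrast and calls under 0.05. Fold changes are log2 with a prior count of 0.125. The SE given with a fold change is its absolute value divided by the square root of the F statistic, not a separate estimate. Replicates are labelled biological, but nothing says whether they share a clutch or day, so p-values measure the spread between these libraries. No 2 libraries were identical.

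The members and lists were chosen with earlier results of these data known. From each list at most 4 genes are named, those called at most stages against uninjected explants, with ties by the larger average change. For likeness the 3 genes of highest r are named. dlc, vox, vent and tbx1 were named after their values were seen. Alternatives were other scalings, no filter, DESeq2 1.42.0, fits of the compared groups alone, sums over stages, a replicate block and leaving out libraries. The comparison of last steps and the fit of the trace rows were added after seeing the data.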

Additional observations from a re-analysis of the deposited data

Results flagged for a closer look

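In 3 cases the difference from uninjected explants differed between stages by a test of that difference itself (edgeR's joint F-test over 7 stages). These were cdx4 with ndr2 (edgeR adjusted p = 0.000109), cdx4 with CA-acvr1b* (edgeR adjusted p = 0.00791) and cdx1a with ndr2 (edgeR adjusted p = 0.0106). Without any one replicate letter the CA-acvr1b* call was lost, and 0 to 1 of the 2 ndr2 calls remained. Among the stages where one of the groups reached a mean of 1 CPM, 2-somite held the widest difference in each case. The log2 values there were 5.16, 4.48 and 4.05. At 30% epiboly the fitted value of cdx4 for ndr2 was -5.30, but the ndr2 group had no count there, so this value depends on the prior count.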

How the results depend on the processing

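Over 54 single-gene results the alternatives kept direction and call in 770 cases and lost the call in 33. They gained a call in 17 and turned the direction in 26. Most of the 54 were not called in the full fit, so the 770 cases include results that stayed uncalled. Calls of the full fit between stages numbered 6 in ndr2, 3 in CA-acvr1b* and 2 in uninjected explants. Against uninjected explants there were 2 with ndr2 and 3 with CA-acvr1b*. All 33 losses fell on these calls. With only the groups compared, calls by stage numbered 1 for ndr2 against uninjected (2 in the full fit) and 1 for CA-acvr1b* against uninjected (3), and genes with a stage-dependent CA-acvr1b* effect 0 (1). DESeq2 called on average over stages 1 gene between CA-acvr1b* and uninjected explants and 1 between the injections (0 each with edgeR), and a stage-dependent effect in 0 genes between CA-acvr1b* and uninjected explants (1 with edgeR) and in 1 between the injections (0). Counts summed over stages gave 2 genes on average for each injection against uninjected (0 and 0). In the full edgeR fit the average over stages called 17.9% of all genes for ndr2 against uninjected and 6.81% for CA-acvr1b* against uninjected. Between the injections it called 8.99%. The shares of all genes called under these alternatives are not given here, so the counts of members describe only how the calls moved. Leaving out libraries, calls between consecutive stages ran from 1 to 6 in ndr2 explants (lowest without replicates B or C) and from 1 to 3 in uninjected explants (lowest without replicates B or C, or shield replicate B or C). Average calls for CA-acvr1b* against uninjected ran from 0 to 1 (1 without replicates A, or uninjected replicate A at 50% epiboly), and stage-dependent effects from 0 to 2 for ndr2 and from 0 to 1 for CA-acvr1b* (fewer without any one letter, where fewer samples were fitted). The direction turned when libraries were left out for 10 differences, none past the test. For cdx4 their ranges were -2.38 to 0.59 (ndr2 against uninjected, 50% epiboly), -1.26 to 2.32 (CA-acvr1b* against uninjected, 50% epiboly), -0.29 to 0.31 (the same, shield), -0.066 to 1.36 (ndr2 against CA-acvr1b*, 2-somite), -0.44 to 0.35 (ndr2, 75% to 90% epiboly), -0.12 to 0.91 (CA-acvr1b*, 90% epiboly to 2-somite) and -0.60 to 0.085 (uninjected, 75% to 90% epiboly). For cdx1a they were -0.81 to 0.44 (CA-acvr1b* against uninjected, 75% epiboly), -0.10 to 1.39 (ndr2 against CA-acvr1b*, 2-somite) and -0.27 to 0.77 (uninjected, 90% epiboly to 2-somite). Between conditions of the same stage, 12 of 63 same-letter correlations of deviations from the group mean exceeded 0.1, with a median of -0.012. These correlations do not show whether libraries of a letter share a clutch or day. Whether a letter has a common source across stages was not tested. With a replicate block the last step of cdx4 in ndr2 explants was 1.94 (edgeR adjusted p = 0.0509) and that of cdx1a in CA-acvr1b* explants 2.12 (edgeR adjusted p = 0.0381), and calls between consecutive stages numbered 5 and 4. Except where stated, the cause was not tested. Few counts limit what can be said of cdx1b, evx1 and evx2 throughout and of cdx1a before 75% epiboly.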
